A study of Homo sapiens with 12 samples.

Results

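The highest dose of 2,8-dihydroxyadenine (DHA), 240 ug/ml, was compared with the dose below it, 120 ug/ml, in HK-2 cells, to describe what still differed at the second doubling of dose and what had levelled off. The comparison used the 3 libraries at 120 and the 3 at 240 ug/ml, 6 of the 12 libraries of the series, over 16789 genes. HK-2 is an established line of human proximal tubule epithelial cells. All cells grew in minimal essential medium with serum, sodium pyruvate and antibiotics. They were kept for 72 h with DHA at 60, 120 or 240 ug/ml in that medium or with the medium alone (control), and each of the 4 groups had 3 libraries. The sources used here describe no control with a carrier. Messenger RNA was selected with oligo(dT) beads and sequenced in pairs. Levels below are the deposited normalized signal, summed per gene. It keeps no counts, so read depth is unknown. No label says if a group's 3 libraries stem from separate flasks of cells. The p-values are therefore about the scatter among these 12 libraries, and that scatter could be technical.

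DHA forms when xanthine dehydrogenase (XDH) oxidises adenine. Adenine phosphoribosyltransferase (APRT) normally salvages adenine to a nucleotide. Where APRT is lacking, DHA reaches the urine and, being poorly soluble, crystallises in the kidney tubule. The proximal tubule epithelium reabsorbs most of the filtrate, and injured tubule cells are known to switch on growth, stress and matrix genes.

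The last doubling of dose gave no gene past the threshold. With limma, 0 genes were higher and 0 were lower at 240 than at 120 ug/ml at an adjusted p under 0.05 (0.0% of 16789 in each direction), and the smallest adjusted p was 0.0575. At an unadjusted p under 0.05, 670 genes (3.99%) were higher and 661 (3.94%) were lower. That split became 828 higher and 357 lower when every library was scaled to an equal total, and 519 higher and 785 lower when a trend with gene length was subtracted. Without replicate 2 at 120 ug/ml, 834 genes reached that level in all instead of 1331 (7.93%), and with array weights 2876 did, 1560 of them higher and 1316 lower. In bulk RNA, fewer cells with a transcript and less of it per cell cannot be told apart. The earlier steps did pass the threshold for many genes. At 60 ug/ml 1492 genes (8.89%) rose and 1685 (10.0%) fell against control, and at 120 against 60 ug/ml 90 (0.536%) rose and 270 (1.61%) fell.

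The sizes of the differences were smaller at each step. Over the 10180 protein-coding genes with a mean signal of 5 or more, the median size of the log2 difference was 0.20 at 60 ug/ml against control, 0.17 at 120 against 60 and 0.11 at 240 against 120 ug/ml. The 95th percentiles of these sizes were 0.70, 0.53 and 0.30. A log2 difference of 1 or more in size was found for 121, 38 and 3 of these genes. The last 3 were PPP1R10, ENSG00000257411 and HSD17B8, named after their values were seen. PPP1R10, a regulatory subunit of protein phosphatase 1, read 4.4, 4.1 and 1.7 at 120 and 16.8, 17.1 and 10.9 at 240 ug/ml. Its groups did not overlap, but its libraries at 60 ug/ml, at 24.1, 14.8 and 6.1, spread around those at 240 ug/ml, and its adjusted p was 0.537 with limma. The libraries of the other two overlapped between the doses.

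A p that misses a threshold does not show a plateau, so the 95% interval of each log2 difference was read against a margin of 1.5-fold (0.585 on the log2 scale). A gene is called level within 1.5-fold here where its whole interval lay inside that margin. This held for 12065 of 16789 genes (71.9%), and 15155 (90.3%) lay inside 2-fold. For the 12731 protein-coding genes the shares were 84.8% and 98.3%. The remaining 4724 genes were neither past the threshold nor level within 1.5-fold, and 3423 of them had a mean signal under 5.

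Genes called at 60 ug/ml against control were then followed to the last step. That choice shares no library with 240 against 120 ug/ml, but one model gave the spread of both, so a gene with a small spread was more likely to be called and to have a narrow interval. Of 3177 genes (18.9%) called at 60 ug/ml, 2806 (88.3%) were level within 1.5-fold between 120 and 240 ug/ml. The share was 92.6% for the 1492 that had risen and 84.6% for the 1685 that had fallen, beside 71.9% of all genes and 84.8% of protein-coding genes. Of the 10180 protein-coding genes with a mean signal of 5 or more, 9215 were level. The called genes had a median SE of 0.11, against 0.14 over all genes. Their shares therefore describe these genes and show no plateau particular to them. The median log2 difference at 240 against 120 ug/ml was -0.03 for the genes that had risen and 0.01 for those that had fallen. Both signs turned, to 0.04 and -0.06, when a trend with GC content was subtracted, and the first also turned, to 0.03, with equal library totals.

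**Figure D1:**
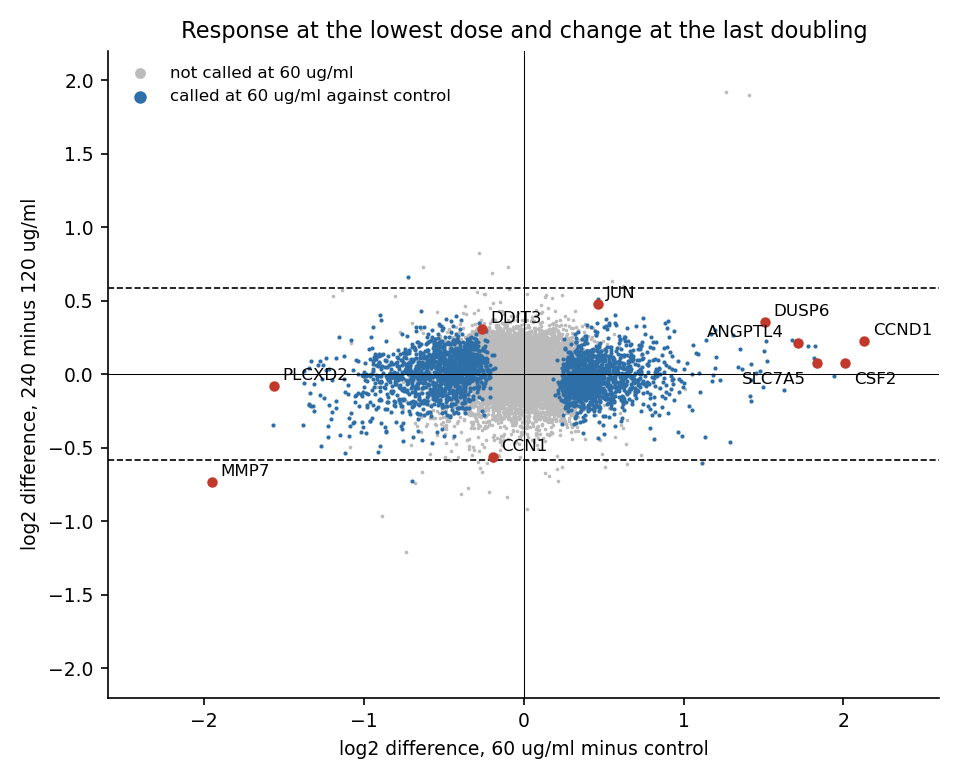
Each point is 1 of the 10180 protein-coding genes with a mean signal of 5 or more. The x axis is the log2 difference at 60 ug/ml against control and the y axis that at 240 against 120 ug/ml, with dashed lines at 1.5-fold. Of these genes, 10147 lie between the lines, and MMP7 lies below the lower one.

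Of the 10 genes with the highest log2 fold changes at 60 ug/ml, 5 were level within 1.5-fold between 120 and 240 ug/ml, and the intervals of the other 5 ran past that margin. CCND1, the cyclin of entry into the cell cycle (chr11:69641087-69654474 on GRCh38), stood at 5.63 ± 1.16 (SD, n = 3) in control and 28.4 ± 7.3 at 60 ug/ml. It read 63, 51.7 and 55.8 at 120 and 69.6, 69.6 and 60.7 at 240 ug/ml. The lowest library at 240 was under the highest at 120, so the groups overlapped, with a log2 difference of 0.23 (SE 0.18) and a 95% interval, -0.16 to 0.62, that ran past 1.5-fold on the high side. CSF2, a cytokine that acts on myeloid cells, read 54.1, 55.5 and 63 at 120 and 63, 59.6 and 59.4 at 240 ug/ml, after 8.67 ± 2.3 (SD, n = 3) in control. Its groups overlapped and its interval, -0.35 to 0.50, lay inside 1.5-fold. SLC7A5, the large neutral amino acid transporter, read 143.5, 148.1 and 147.9 at 120 and 146.3, 164.8 and 152.3 at 240 ug/ml, again with overlap. Its interval was -0.40 to 0.55, and that of SCEL, a protein of the cornified envelope, was -0.35 to 0.33, both inside the margin.

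ANGPTL4, a secreted inhibitor of lipoprotein lipase, read 136, 114 and 151.5 at 120 and 151.5, 153.6 and 157.5 at 240 ug/ml. The highest library at 120 equalled the lowest at 240 ug/ml, and the interval of -0.43 to 0.85 lay inside 2-fold but not 1.5-fold. SLCO4A1, an organic anion transporter, stood at 259.5 ± 16.4 and 298 ± 35 (SD, n = 3), with overlap and an interval that also ran past 1.5-fold (-0.25 to 0.63). FOSL1, an AP-1 subunit induced by ERK signalling, was level at 141 ± 8.32 and 131 ± 11.1. TMEM158, a RAS-responsive membrane protein, was 9.73 ± 0.71 and 12.3 ± 2.01, with overlap. Of the 10 highest log2 fold changes at 60 ug/ml, 5 belonged to protein-coding genes.

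DUSP6 and UHRF1 were among the genes that had risen at 60 ug/ml and had groups that did not overlap at the last step, in opposite directions. Of the 1492 genes that had risen, 107 had all libraries higher at 240 than at 120 ug/ml and 169 all lower. Over all genes the shares were 7.51% and 5.49%. DUSP6, the phosphatase that switches off ERK, read 37.5, 37.2 and 42.3 at 120 and 44.6, 52.6 and 53.7 at 240 ug/ml. All libraries at 240 lay above all at 120 ug/ml, with a log2 difference of 0.36 (SE 0.12) that did not pass (adjusted p = 0.599, limma). DUSP5, its nuclear relative, was 93.3 ± 8.29 and 110.3 ± 15.9 (SD, n = 3), with overlap. UHRF1, which maintains DNA methylation in S phase, had risen from 12.6 ± 2.2 in control to 28.6 ± 5.99 at 60 ug/ml. It read 32.3, 30.1 and 28.8 at 120 and 12.6, 23 and 25.9 at 240 ug/ml, so all libraries at 240 were lower and replicate 1 was near the control mean. The difference of -0.60 (SE 0.23) had an adjusted p of 0.606 with limma.

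**Figure D2:**
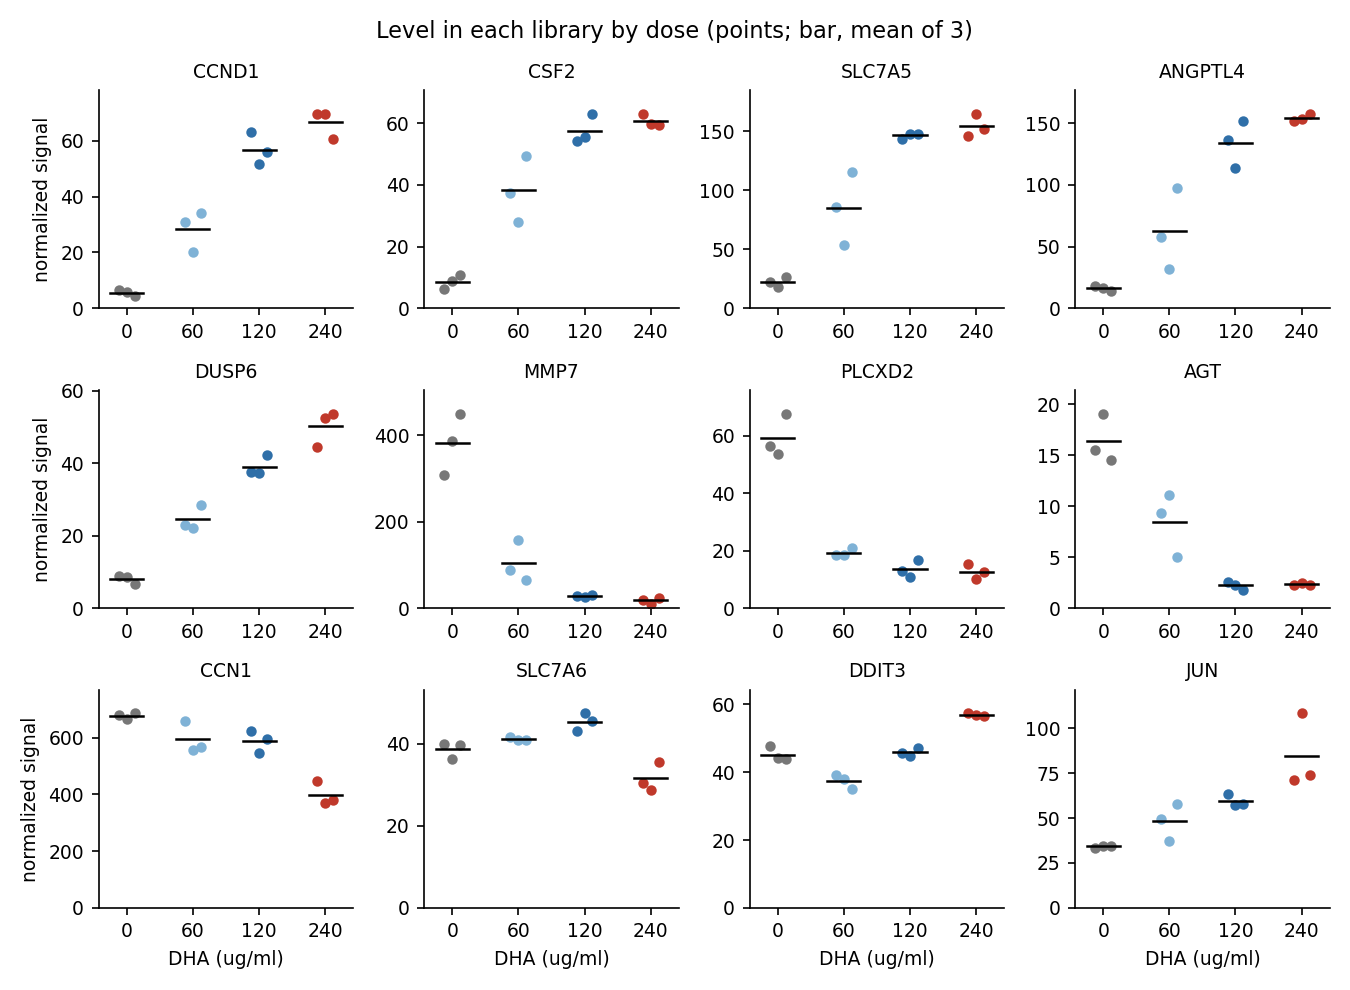
Normalized signal (y axis, from 0) of 12 genes in each of the 12 libraries (points) by DHA dose (x axis, ug/ml), with the mean of each group of 3 as a bar. CSF2 and SLC7A5 are level within 1.5-fold between 120 and 240 ug/ml, CCN1 is lower at 240 ug/ml than in any other library, and DDIT3 is higher there.

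Of the 10 genes with the lowest log2 fold changes at 60 ug/ml, 2 were level within 1.5-fold between 120 and 240 ug/ml and 5 lay inside 2-fold. Of the 10, 6 were protein-coding. The others, ENSG00000230285, ENSG00000256569, ENSG00000257849 and ENSG00000257905, had differences from -1.48 to -0.68, with intervals past 2-fold. Only ENSG00000257905 of these had groups that did not overlap (adjusted p = 0.537, limma). AGT and CFI, given below from an earlier account, are not among the 10. Some genes that fell at 60 ug/ml had low values at both 120 and 240 ug/ml, where the pseudocount of 1 narrows log2 differences. AGT, angiotensinogen, fell from 16.4 ± 2.42 (SD, n = 3) in control to 8.47 ± 3.13 at 60 ug/ml. It read 2.6, 2.3 and 1.8 at 120 and 2.3, 2.5 and 2.3 at 240 ug/ml, overlapping, with an interval of -0.41 to 0.54. PLCXD2, a phospholipase C-like protein, stood at 59.4 ± 7.45 in control, 13.5 ± 3.08 at 120 and 12.7 ± 2.7 at 240 ug/ml, also level within 1.5-fold. ATOH8, a transcription factor, read 0.2, 0.4 and 0.2 and then 0.3, 0.3 and 0.3, too near 0 for the margin to say anything of its fold change. UBD, a ubiquitin-like modifier, GBP2, an interferon-induced GTPase, and CFI, a complement protease, were at 1.2 or less in every library of both doses, and their intervals ran past 1.5-fold. ID3, a direct BMP target that blocks differentiation factors, read 13.3, 12 and 18.7 at 120 and 10.9, 8.7 and 14.5 at 240 ug/ml. Its libraries overlapped and its interval, -0.82 to 0.13, ran past 1.5-fold on the low side.

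MMP7, matrilysin, a secreted matrix protease of injured tubule, had lower values again at the last step. It fell from 382 ± 71.3 (SD, n = 3) in control to 104 ± 48.3 at 60 ug/ml. It read 27.6, 26.7 and 31.1 at 120 and 19.6, 9.8 and 24 at 240 ug/ml. Every library at 240 lay below every library at 120 ug/ml, with replicate 2 the lowest. The log2 difference of -0.73 (SE 0.33, 95% interval -1.45 to -0.01) did not pass (adjusted p = 0.622, limma). PLA1A, a secreted phospholipase, did not overlap either, at 8.5, 9.6 and 7 and then 5.8, 5.8 and 5.3, with a difference of -0.49 (SE 0.30).

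Of the 138 genes that fell by a log2 of 1 or more at 60 ug/ml, 97 had a value below 0 at 240 against 120 ug/ml. Over all genes 51.5% were above 0. The median of the 138 was -0.13 against 0.01 over all genes. Chosen anew under equal totals, quantile normalization, median ratio scaling, a GC trend or a length trend, such genes had medians from -0.15 to -0.07. For the 84 genes that rose by as much the median was 0.04. These strong responders had wide intervals, with median SEs of 0.22 and 0.20, and 44 of the 138 and 37 of the 84 were level within 1.5-fold.

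The 250 bases before the MMP7 start are shown because MMP7 had lower values at each dose and this window holds the letters of the site bound by AP-1, the dimer of FOS and JUN proteins whose genes are described below. The sequence is RefSeq's for GRCh38.p14, chr11:102530748-102530997, minus strand, written 5′ to 3′, with the match to TGANTCA in capitals. TGANTCA reads the same on both strands, and 6.57% of all 35116 RefSeq promoter windows of this length hold it.
MMP7: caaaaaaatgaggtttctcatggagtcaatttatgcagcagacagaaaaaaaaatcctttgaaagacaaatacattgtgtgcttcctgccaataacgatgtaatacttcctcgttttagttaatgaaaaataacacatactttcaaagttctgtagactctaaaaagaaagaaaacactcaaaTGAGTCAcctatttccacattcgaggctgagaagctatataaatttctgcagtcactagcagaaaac
The match begins 67 bases before the start. It is a description of letters, not of binding.

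Genes nearest to lower values at 240 ug/ml included CCN1 and SLC7A6. The 12 with the smallest unadjusted p in this direction and a mean of 5 or more had adjusted p-values from 0.0575 to 0.278 with limma. All 12 had groups that did not overlap, which held for 921 genes (5.49%) in this direction. They were chosen by their p in these same libraries, so this separation follows largely from the choice. CCN1, a matricellular protein and known target of the mechanosensitive YAP and SRF factors (chr1:85580761-85583962), read 623.3, 545.4 and 596 at 120 and 446.5, 369.8 and 378.9 at 240 ug/ml. It had been 676 ± 11.1 (SD, n = 3) in control and 593 ± 55.1 at 60 ug/ml, so the 3 libraries at 240 stood below the other 9. The log2 difference was -0.56 (SE 0.10, adjusted p = 0.218, limma). SLC7A6, a basic amino acid exchanger, read 43, 47.4 and 45.5 at 120 and 30.5, 28.7 and 35.6 at 240 ug/ml, after 41.1 ± 0.416 (SD, n = 3) at 60 ug/ml. Its groups did not overlap, with a log2 difference of -0.51 (SE 0.08, adjusted p = 0.137, limma).

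MARCKSL1, an actin-regulating membrane protein, had fallen from 60 to 120 ug/ml. It stood at 296 ± 5.2 in control, 267 ± 10.5 at 60, 182 ± 10.8 at 120 and 127 ± 16.9 (SD, n = 3) at 240 ug/ml. ERGIC1, a protein of the route from the endoplasmic reticulum to the Golgi, read 74.8, 73 and 71.9 at 120 and 55.8, 49.6 and 52.7 at 240 ug/ml. SLC35A2, the Golgi UDP-galactose carrier, read 64.3, 65.1 and 63.4 at 120 and 50.8, 42.9 and 50.4 at 240 ug/ml. SPPL3, a Golgi protease that sheds glycosyltransferases, was 50.9 ± 1.76 and 39.6 ± 0.7 (SD, n = 3). HOXA7, a homeobox factor, had a log2 difference of -0.39, and COMTD1, a predicted methyltransferase, of -0.40. The other members were the non-coding RNA RNF32-DT and the pseudogenes ENSG00000282339, ENSG00000243302 and ENSG00000230715. Their differences ran from -1.28 to -0.93. A pseudogene can share reads with its parent gene, which makes these 3 uncertain.

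Targets of YAP and SRF, mostly actin-binding and adhesion genes, leaned to lower values. Of 30 tested, 0 passed and 21 were below 0, while 51.5% of all genes were above 0. The median was -0.10 against 0.01 for all genes (-0.06 after the GC trend was subtracted). In all, 26 were level within 1.5-fold. Those with an unadjusted p under 0.05 were 6, all lower, where 3.94% of all genes were: CCN1, TAGLN2, TPM4, AXL, AMOTL2 and CNN2, named after their values were seen. TAGLN2, an actin-binding protein, was 598 ± 52 at 120 and 488 ± 87.5 (SD, n = 3) at 240 ug/ml, with overlap. AMOTL2, which restrains YAP, was 96.2 ± 6.45 and 82.2 ± 0.95, without overlap. Of the most abundant members, ACTB, a cytoplasmic actin, read 6340.1, 6508.7 and 6626.2 at 120 and 6096.2, 5089.4 and 5729.8 at 240 ug/ml, all lower. FLNA, the filamin that cross-links actin, overlapped at 1777 ± 35.3 and 1802 ± 56 (SD, n = 3).

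Genes nearest to higher values had adjusted p-values from 0.293 to 0.537 with limma. They were RGPD5, CACNA2D1, SHOC2, DDIT3, DDX20, BCL2L2-PABPN1, ENSG00000249780, TLK2, RBPJ, TMEM218, NFIL3 and MINDY3. ENSG00000249780 is a processed pseudogene, as uncertain as the pseudogenes above. It and BCL2L2-PABPN1 had the largest differences, 1.07 and 1.24, with intervals that ran past 2-fold. All 12 had groups that did not overlap (7.51% of all genes in this direction), which again follows largely from their choice by p. Of the 12, 10 lay inside 2-fold. DDIT3, the stress factor CHOP (chr12:57516588-57521737), read 45.8, 44.7 and 47.3 at 120 and 57.4, 57 and 56.7 at 240 ug/ml. It had fallen from 45.2 ± 2.17 (SD, n = 3) in control to 37.5 ± 2.03 at 60 ug/ml and had risen again at 120 ug/ml. The last step was a log2 difference of 0.31 (SE 0.06, 95% interval 0.17 to 0.45), inside 1.5-fold. RBPJ, the DNA-binding effector of Notch, read 36, 32.9 and 36.7 at 120 and 43.1, 45.6 and 41.6 at 240 ug/ml. SHOC2, a scaffold that helps activate RAF, read 19.2, 21 and 20.8 at 120 and 27.8, 27.2 and 24.6 at 240 ug/ml. These genes are AT-rich, at 39% and 37.4% GC, which bears on the GC lean given below. TLK2, a kinase of chromatin assembly, was 22.1 ± 1.38 and 31.3 ± 0.851 (SD, n = 3).

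Genes of the unfolded protein and integrated stress responses were split in value. Of 30 tested genes 0 passed and 19 had higher values, as did 51.5% of all genes. The median was 0.13, from 0.10 to 0.16 when any 1 of the 6 libraries was left out and 0.07 after the GC trend was subtracted. At an unadjusted p under 0.05, 4 were higher (DDIT3, ASNS, PPP1R15A and SEL1L) and 4 were lower (PDIA4, ATF5, SDF2L1 and CRELD2), named after their values were seen, beside 3.99% and 3.94% of all genes. ASNS, asparagine synthetase, a textbook target of ATF4, read 119.1, 104.4 and 113.3 at 120 and 160, 143.2 and 137.4 at 240 ug/ml. Its groups did not overlap, and the log2 difference was 0.38 (SE 0.11, adjusted p = 0.537, limma). ATF4 itself overlapped, at 14.1, 14.2 and 9.9 and then 13.7, 14 and 11.6, and is regulated largely in translation. PDIA4, a disulphide isomerase of the endoplasmic reticulum, was 34.4 ± 0.907 and 26.2 ± 5.3 (SD, n = 3), without overlap. HSP90B1, an abundant chaperone of the same compartment, was 589.7 ± 46.1 and 593 ± 65.7, and PHGDH, of serine synthesis, 325 ± 39.1 and 308 ± 32.5, both overlapping.

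Enzymes that charge tRNAs were level within 1.5-fold in all 20 cases tested. Of these, 16 had higher values, as did 51.5% of all genes. The median was 0.17, from 0.08 to 0.23 when any 1 of the 6 libraries was left out and 0.10 after the GC trend was subtracted. LARS1, IARS1 and SARS1, which charge leucine, isoleucine and serine tRNAs, had higher values at an unadjusted p under 0.05, and VARS1, for valine, lower ones. IARS1 read 149.6, 144.2 and 157.1 at 120 and 174.2, 175.1 and 177 at 240 ug/ml, without overlap, a difference of 0.22 (SE 0.08, adjusted p = 0.606, limma). VARS1 was 50.8 ± 3.9 and 40.6 ± 3.13 (SD, n = 3), also without overlap. YARS1 and MARS1, which had risen at 60 ug/ml, had differences of 0.00 and 0.03. Of 20 amino acid transporters 15 were level within 1.5-fold, with a median of 0.08. SLC1A5, a glutamine carrier, was 274 ± 16 and 273 ± 12.2 (SD, n = 3). SLC38A2, which adapts to amino acid shortage, was higher by 0.25, with overlap.

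Promoter windows of ASNS, ATF3 and IARS1 are shown because ATF4 and C/EBP proteins bind composite sites of the form TGATGNAA, and these genes had higher values in all 3 libraries at 240 ug/ml. They are RefSeq's for GRCh38.p14, the 250 bases before a start, 5′ to 3′ on the gene's strand, with the match on either strand in capitals. The windows are chr7:97872409-97872658 (minus strand) for ASNS, chr1:212565157-212565406 (plus strand) for ATF3 and chr9:92293698-92293947 (minus strand) for IARS1. ASNS and ATF3 have 2 windows each, and the one with the match is printed.
ASNS: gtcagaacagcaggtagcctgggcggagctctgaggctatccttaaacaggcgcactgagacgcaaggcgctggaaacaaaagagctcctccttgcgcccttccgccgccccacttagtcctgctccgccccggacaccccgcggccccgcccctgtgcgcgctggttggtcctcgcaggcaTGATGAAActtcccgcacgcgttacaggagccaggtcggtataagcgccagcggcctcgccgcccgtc
ATF3: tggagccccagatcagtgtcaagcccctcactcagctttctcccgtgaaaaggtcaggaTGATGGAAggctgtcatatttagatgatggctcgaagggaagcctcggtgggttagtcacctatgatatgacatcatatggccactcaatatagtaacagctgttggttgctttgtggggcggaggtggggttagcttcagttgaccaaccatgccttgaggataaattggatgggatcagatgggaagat
IARS1: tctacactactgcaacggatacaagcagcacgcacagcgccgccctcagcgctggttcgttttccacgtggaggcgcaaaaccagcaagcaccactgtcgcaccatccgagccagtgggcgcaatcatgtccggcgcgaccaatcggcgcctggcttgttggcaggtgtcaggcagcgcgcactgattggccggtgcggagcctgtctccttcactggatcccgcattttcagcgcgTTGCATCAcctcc
The matches begin 68, 191 and 13 bases before the start, that of IARS1 on the opposite strand, and none of the 3 windows holds TGANTCA. TGATGNAA is in 3.14% of all 35116 windows and in a window of 252 of the 11048 tested genes that have one (2.28%). Of the stress response list 3 of 28 genes with a window hold it, and 3 of 16 tRNA synthetases. The 3 genes were picked for their higher values and a match, and the values of other genes with a match were not compared. The counts describe letters, not binding, and whether the site bears on any value was not tested.

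ERK-induced and immediate early genes mostly had higher values again, by less than at the first step. Of 33 tested, 0 passed, 23 had higher values (51.5% of all genes did) and 27 were level within 1.5-fold. The list's median was 0.54 at 60 ug/ml against control, where 21 rose and 2 fell (8.89% and 10.0% of all genes), and 0.14 at 240 against 120 ug/ml. The last value was 0.08 to 0.16 when any 1 of the 6 libraries was left out and 0.11 after the GC trend was subtracted. JUN, an AP-1 subunit (chr1:58780788-58784327), read 63.6, 57.4 and 57.6 at 120 and 71.3, 108.3 and 74.2 at 240 ug/ml. All 3 libraries at 240 stood above those at 120, replicate 2 well above the other two. The log2 difference was 0.48 (SE 0.17, adjusted p = 0.599, limma). ATF3, a stress-induced factor of the same family, read 14.1, 14.8 and 17.7 at 120 and 19.4, 24.8 and 21.6 at 240 ug/ml, without overlap, a difference of 0.47 (SE 0.14). EGR2, an immediate early factor, was 10.2 ± 0.231 and 13.1 ± 1.01 (SD, n = 3), also without overlap. IER5 went the other way, by -0.27. MYC, at 266 ± 13.5 and 283 ± 11.7, and FOSL2, at 102 ± 6.33 and 103 ± 4.86 (SD, n = 3), overlapped.

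Messenger RNAs made in the mitochondrion had lower values throughout. The mitochondrial genome encodes 13 subunits of the respiratory chain and ATP synthase, and all 13 mRNAs were below 0 at 240 against 120 ug/ml, though 0 passed. The median was -0.40, none was level within 1.5-fold, and 7 lay inside 2-fold. At 120 against 60 ug/ml the median had been -0.34, after 0.08 at 60 ug/ml against control. Lower values were thus not particular to the last step. MT-CYB, cytochrome b (chrM:14747-15887), read 9029.1, 8023.9 and 7535.5 at 120 and 6132.4, 4513.3 and 5163.2 at 240 ug/ml. The groups did not overlap, with a difference of -0.64 (SE 0.22, adjusted p = 0.594, limma). MT-ND6, a complex I subunit and the one mRNA encoded on the other strand, read 1201.5, 826.1 and 719.3 at 120 and 553, 462.6 and 617.2 at 240 ug/ml. That was a difference of -0.72 (SE 0.21), again without overlap. MT-CO1, a cytochrome oxidase subunit, overlapped, at 21684.8, 19365.8 and 18996.8 and then 20254.5, 15372.3 and 17270.8.

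The 13 mRNAs are cut from shared precursors and move with a library's mitochondrial fraction, so they are not 13 independent observations. Together they held 16.23%, 14.67% and 11.4% of the library total at 120 and 12.21%, 10.69% and 10.88% at 240 ug/ml, so the shares overlapped. Leaving out any 1 of the 6 libraries moved the median between -0.53 and -0.27, and quantile normalization brought it to -0.13. The rRNAs of the same genome, MT-RNR1 and MT-RNR2, had differences of -0.01 and 0.05, were level within 1.5-fold and overlapped. The 16 mitochondrial tRNAs had a median of 0.29, from -0.89 to 1.5. Of these 4 had an unadjusted p under 0.05 (7.93% of all genes). Groups were all higher at 240 ug/ml for 3 and all lower for 0 (7.51% and 5.49% of all genes). The 4 were MT-TG, MT-TH, MT-TS2 and MT-TC. Their means were 0, 0.5, 0.53 and 9.7 at 120 and 1.6, 2, 3.07 and 17.3 at 240 ug/ml, mostly near the floor. Such short RNAs are poorly measured after oligo(dT) selection, and most of these had a mean under 10. How well oligo(dT) selection captured each of these RNAs was not tested.

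**Figure D3:**
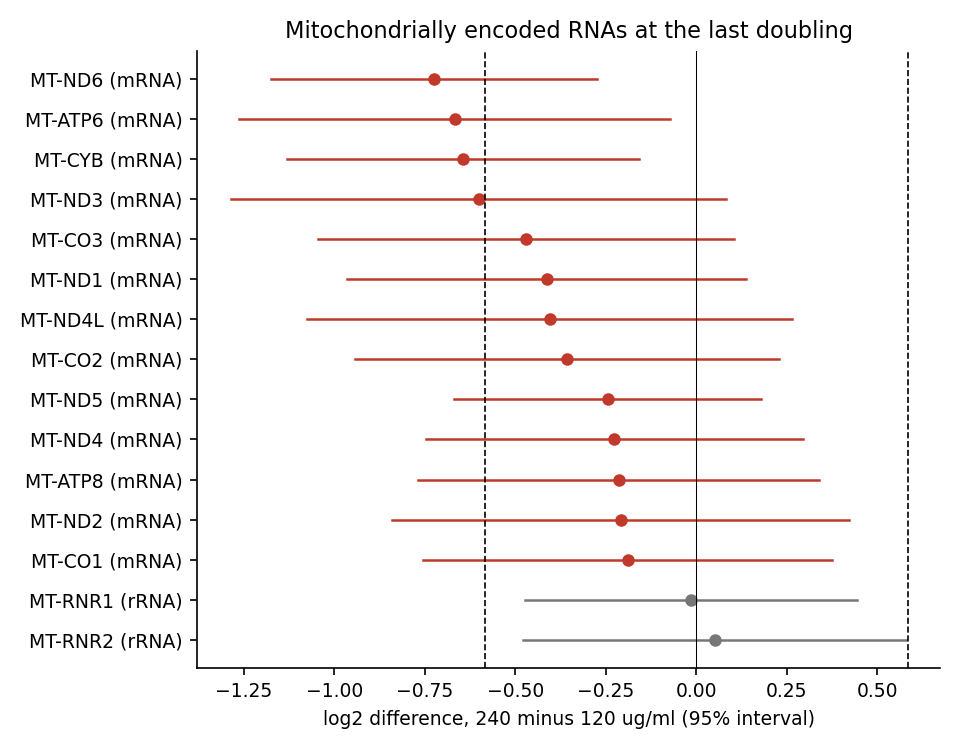
Log2 difference at 240 against 120 ug/ml (point) with its 95% interval (line) for the 13 mitochondrially encoded mRNAs (red) and the 2 rRNAs (grey), with dashed lines at 1.5-fold. All 13 mRNA estimates lie left of 0, from -0.72 to -0.19, and the intervals of MT-ND6, MT-ATP6 and MT-CYB exclude 0.

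Ribosomal protein genes had fallen early and did not separate at the last step. Of 76 tested, 45 fell at 60 ug/ml against control (10.0% of all genes), with a list median of -0.75. At 240 against 120 ug/ml 0 passed, 0 had an unadjusted p under 0.05 by limma, and the median was -0.04. The median turned to 0.18 without replicate 2 at 240 and to 0.11 without replicate 3 at 120 ug/ml, and moved to -0.24 without replicate 1 at 240 and to -0.17 without replicate 2 at 120 ug/ml. All 76 lay inside 2-fold and 42 inside 1.5-fold. RPS23, of the small subunit, read 927.7, 780.8 and 1242.1 at 120 and 1146.3, 605 and 967.6 at 240 ug/ml, which overlap. The list held 8.54%, 8.04% and 10.84% of the library total at 120 and 10.87%, 7.51% and 9.37% at 240 ug/ml.

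The 72 nuclear genes of the respiratory chain had a median of -0.03 at the last step, after -0.38 at 60 ug/ml, and 55 were level within 1.5-fold. NDUFS7, a complex I subunit named after its value was seen, read 95.1, 104.8 and 107.8 at 120 and 83.6, 69.1 and 72 at 240 ug/ml, without overlap (adjusted p = 0.293, limma). COX4I1, of cytochrome oxidase, overlapped at 432 ± 123 and 412 ± 93.9 (SD, n = 3).

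Cell-cycle genes were level. All 32 mitosis genes and 30 of 32 S phase genes lay inside 1.5-fold, with medians of 0.04 and -0.01. CDK1, the mitotic kinase, was 149 ± 6.69 and 149 ± 4.96 (SD, n = 3). AURKB, of the chromosomal passenger complex, rose at 60 ug/ml from 88.3 ± 7.88 in control and was 153 ± 3.77 and 154 ± 13.6 at the upper doses. PCNA, the replication clamp, was 332 ± 51.4 and 328 ± 49.3. Besides UHRF1, no gene of the 2 lists had an unadjusted p under 0.05.

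Junction and matrix genes were level within 1.5-fold in shares near that of all protein-coding genes (84.8%). Of 24 tight junction and polarity genes 19 were level within 1.5-fold, with a median of -0.02. CLDN1, a barrier claudin that rose at 60 ug/ml, was 345 ± 10.9 and 344 ± 12.6 (SD, n = 3). CLDN2, a pore-forming claudin of leaky epithelia, was 133 ± 35.2 and 93.7 ± 16.2, with overlap and an interval of -1.06 to 0.10. Of 24 adherens, desmosome and keratin genes 20 were level, CDH6 at 329 ± 19.4 and 331 ± 14.1 (SD, n = 3) among them. KRT80, a keratin, was lower without overlap, at 48, 52.9 and 50.5 and then 41.1, 42.1 and 44.6. Of 29 matrix genes 25 were level, with a median of -0.09. SPARC, a collagen-binding matricellular protein, had fallen from 1963 ± 149.6 in control to 378 ± 33.8 at 120 ug/ml and stood at 329 ± 67.7 (SD, n = 3) at 240 ug/ml, with overlap. FN1, fibronectin, was 6438 ± 622 and 6677 ± 420.4.

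Matrix proteases and their inhibitors were mixed: of 18 tested, 12 were level within 1.5-fold and the median was -0.05. PLAU, urokinase, which rose at 60 ug/ml, was level at 740 ± 88.2 and 735 ± 53 (SD, n = 3).

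**Figure D4:**
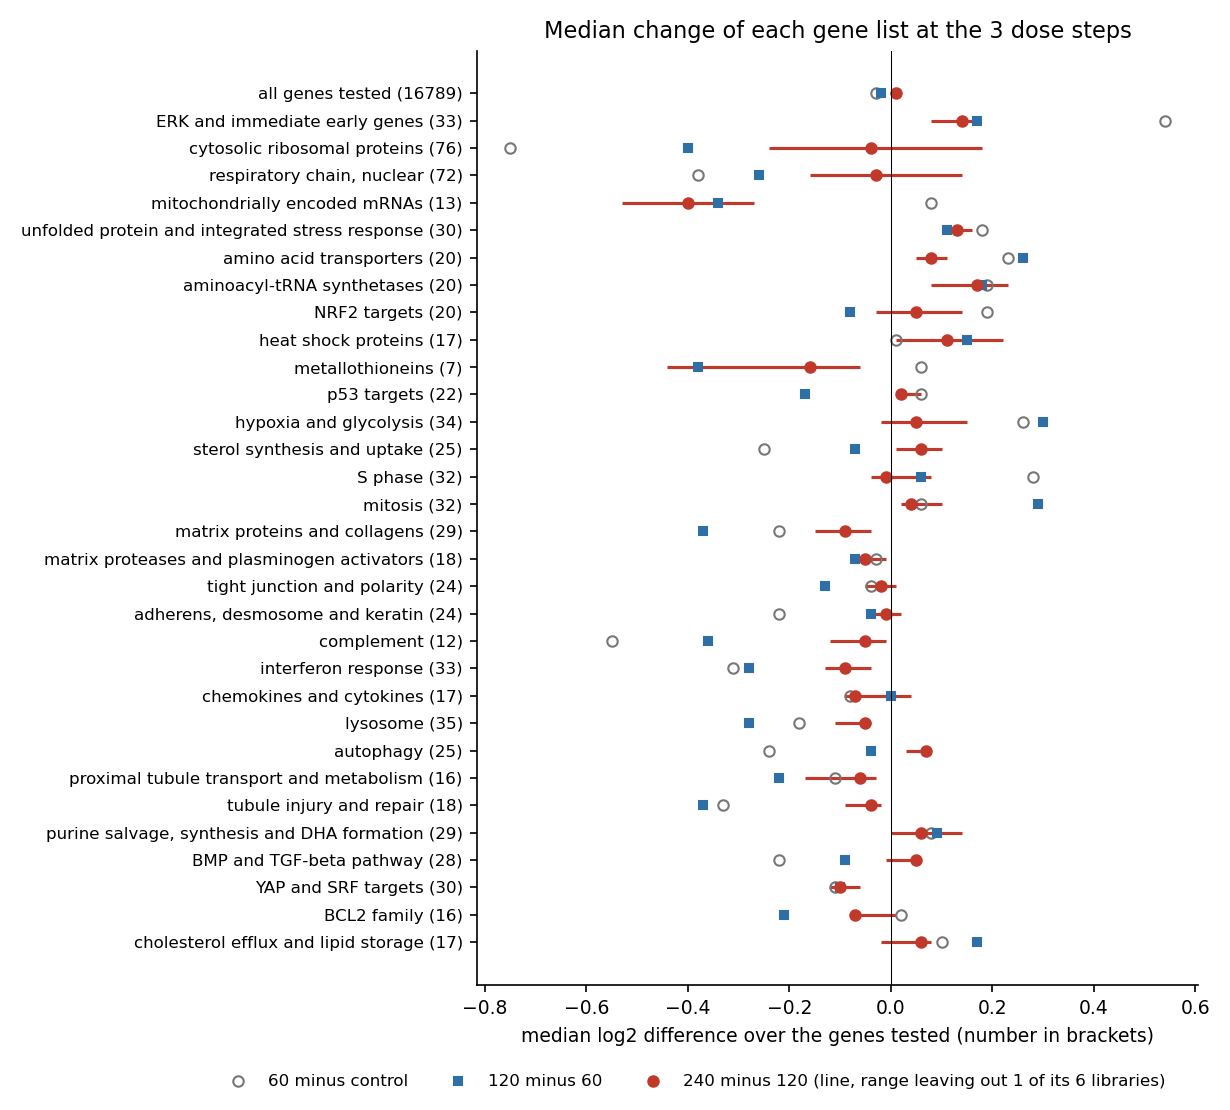
Median log2 difference (x axis) of each of the 31 gene lists and of all 16789 genes (y axis, number tested in brackets) at 60 ug/ml against control, 120 against 60 and 240 against 120 ug/ml. Red lines give the range of the last median when 1 of its 6 libraries is left out. At 240 against 120 ug/ml 25 of the 31 medians lie within 0.1 of 0, against 11 and 10 at the first steps. The steps above and below 120 ug/ml share the 120 ug/ml libraries.

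Interferon and lysosome genes leaned to lower values, where 51.5% of all genes were above 0. Members of a list share the same libraries, so they are not independent observations. Of 33 interferon response genes 0 passed and 25 were below 0, with a median of -0.09 (-0.05 after the GC trend was subtracted). IFITM3, a membrane protein that hinders virus entry, read 30.6, 34 and 30.4 at 120 and 26.8, 19.2 and 21.2 at 240 ug/ml, without overlap, after 73.7 ± 8.12 (SD, n = 3) in control. Its difference was -0.49 (SE 0.15, adjusted p = 0.537, limma). IFI6, another induced membrane protein, had a difference of -0.52. B2M, of the class I complex, overlapped at 267 ± 50.3 and 265 ± 50.9 (SD, n = 3). Of 35 lysosome genes 33 were level within 1.5-fold and 28 were below 0, with a median of -0.05 that turned to 0.01 with equal library totals. CTSB, cathepsin B, was 11.4 ± 0.945 and 7.77 ± 1.56, and CTSD, cathepsin D, 802 ± 54.9 and 719.6 ± 8.59 (SD, n = 3), both without overlap.

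Injury and complement genes gave no call either. Of 18 injury and repair genes 12 were level within 1.5-fold, with a median of -0.04, and of 12 complement genes 7, with a median of -0.05. CLU, clusterin, a secreted chaperone of injured tubule on both lists, read 69, 95.1 and 55.9 at 120 and 55.3, 42.2 and 48.1 at 240 ug/ml. The groups came within 1 unit of each other and did not overlap, a difference of -0.56 (SE 0.25, adjusted p = 0.622, limma). IGFBP7, a secreted marker of tubule stress, read 274.4, 260.3 and 249.9 at 120 and 232.5, 155.3 and 195.6 at 240 ug/ml, also all lower, and had fallen from 60 to 120 ug/ml. SPP1, osteopontin, a secreted phosphoprotein of the tubule, was level at 2075 ± 190.3 and 2111 ± 296 (SD, n = 3).

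Genes that make or handle purines showed no called change. APRT overlapped, at 113.9, 112.3 and 141.2 and then 122.4, 104.3 and 116. XDH was near the bottom of the scale, at 1.2, 0.9 and 0.9 and then 2.1, 1.1 and 2, a difference of 0.43 (SE 0.19, adjusted p = 0.622, limma), with overlap. Of 29 genes tested 25 were level within 1.5-fold, with a median of 0.06. GMPS, which makes GMP, was 133 ± 11 and 158 ± 2.94 (SD, n = 3), higher without overlap. ADA, adenosine deaminase, was 10.5 ± 0.462 and 8.2 ± 1.57, lower without overlap. IMPDH2, PRPS1 and PAICS had differences of 0.00, 0.01 and 0.06.

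BMP and TGF-beta genes were mixed in value. TGFB3, a ligand, fell from 8.5 ± 1.28 (SD, n = 3) in control to 3.1 ± 0.8 at 60 ug/ml. It then read 1.1, 2.9 and 2.8 at 120 and 2.7, 4.9 and 4.3 at 240 ug/ml, with overlap and higher in value by 0.63. The signal carriers SMAD2 and SMAD4 and the receptor TGFBR1 were higher by 0.22, 0.26 and 0.24. The inhibitor SMAD6 had a difference of -0.26, and the BMP target ID1, which fell at 60 ug/ml, of -0.37, at 100.4 ± 9.59 and 78.4 ± 17.2 (SD, n = 3). These last 6 are all with an unadjusted p under 0.05 among 28 tested, beside 7.93% of all genes, and were named after their values were seen. In all 21 were level within 1.5-fold, and the median of 0.05 turned to -0.01 after the GC trend was subtracted.

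Oxidative stress and cell death genes were split. Of 20 NRF2 targets 14 were level within 1.5-fold, with a median of 0.05. HMOX1, haem oxygenase, which rose from 60 to 120 ug/ml, read 73.2, 61.9 and 92.2 at 120 and 83.7, 103.6 and 110.6 at 240 ug/ml, with overlap. GCLC, the limiting enzyme of glutathione synthesis, read 17.1, 19.2 and 19.4 at 120 and 24.7, 22.3 and 25.5 at 240 ug/ml, all higher. FTH1, ferritin heavy chain, was lower without overlap, at 2976 ± 162 and 2411 ± 84 (SD, n = 3). Among 22 p53 targets 20 were level, with a median of 0.02: CDKN1A, the cell-cycle inhibitor, was 68.8 ± 4.21 and 64.9 ± 6.73. PMAIP1 (NOXA) and BAX, which promote cell death, differed by 0.26 and -0.24, in opposite directions and each without overlap.

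The remaining lists gave no call. No gene of the hypoxia and glycolysis list (34 tested) or of the sterol list (25 tested) had an unadjusted p under 0.05 with limma, 22 and 23 were level within 1.5-fold, and their medians were 0.05 and 0.06. GAPDH, of glycolysis, was 7208 ± 969 and 7375 ± 1601 (SD, n = 3). Of 25 autophagy genes 24 were level, with SQSTM1, the receptor p62, higher by 0.26 and overlapping. Of 17 heat shock genes 15 were level, with a median of 0.11. Of 7 metallothioneins 2 were level and 6 were below 0. Their median was -0.16, from -0.44 to -0.06 when any 1 of the 6 libraries was left out, after -0.38 at 120 against 60 ug/ml. MT2A read 6181.2, 5971.3 and 6176.5 and then 7753.9, 5383.2 and 5190.8, with replicate 1 at 240 ug/ml above all others. Of 17 chemokines and cytokines 12 were level, CX3CL1, the membrane-bound fractalkine, being lower without overlap (-0.41). Of 16 BCL2 family genes 12 and of 17 genes of lipid storage and cholesterol efflux 16 were level, with medians of -0.07 and 0.06. Of 16 tested genes of proximal tubule transport and metabolism 9 were level, with a median of -0.06.

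Differences at the last step leaned with the GC content of a gene. Over 16776 genes the log2 difference at 240 against 120 ug/ml had a Pearson correlation of -0.30 with GC content and 0.06 with length, across genes, which are not independent replicates. With GC content the correlation was -0.27 at 120 against 60 ug/ml and 0.26 at 60 ug/ml against control. A lean of this sign was thus not particular to the last step. Of 10 equal bins of protein-coding genes, the one with the least GC (median 38.4%) had a median difference of 0.14, and the one with the most (64.3%) of -0.12. Genes higher at an unadjusted p under 0.05 had a median GC content of 42.4% and those lower 58.6%, against 49.1% over all genes. Against the mean of all 12 libraries, each library at 240 ug/ml leaned the same way, with correlations of -0.18, -0.17 and -0.28. Those at 120 ug/ml were at 0.0, 0.08 and -0.08, and those at 60 ug/ml at 0.44, 0.29 and 0.07. After each library's GC trend was subtracted, 0 genes passed with limma, and 404 were higher and 523 lower at an unadjusted p under 0.05. The part of this lean in any result was otherwise not tested.

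**Figure D5:**
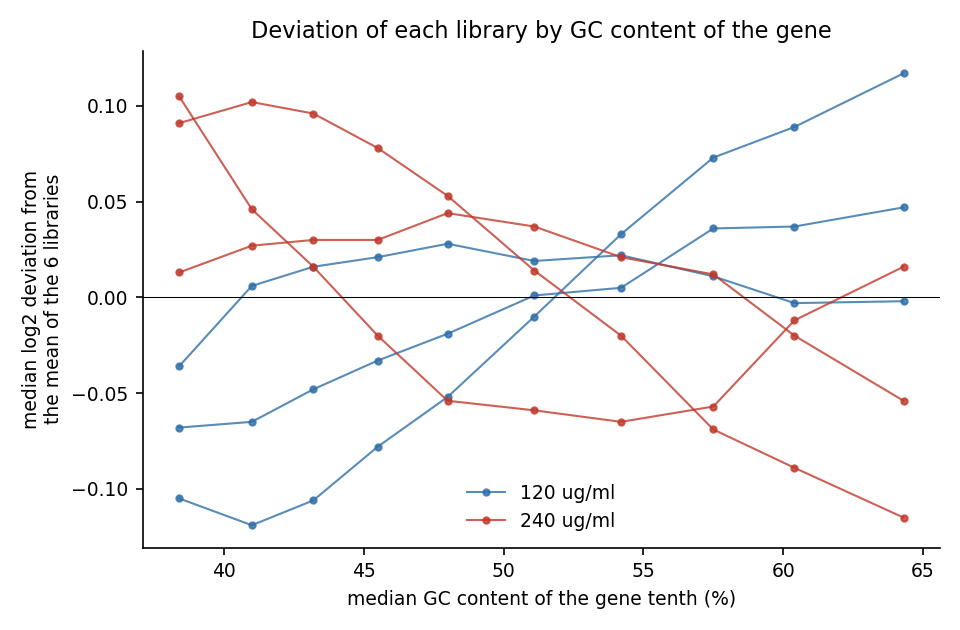
Median log2 deviation of each of the 6 libraries from the mean of the 6 (y axis), in 10 equal bins of the protein-coding genes ordered by GC content (x axis, %). In the bins at 38.4% and 41% GC the 3 libraries at 240 ug/ml (red) lie above those at 120 ug/ml (blue). From 45.5% GC on the order is mixed, except at 60.4%, where those at 240 ug/ml lie below.

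The 6 libraries were close. Correlations of log2 values ran from 0.980 to 0.985 within a dose and from 0.978 to 0.985 between the doses. In a principal component analysis the second component, with 23.6% of the variance, put the 120 ug/ml libraries at 10, 16.3 and 12.5 and those at 240 at 4.4, -31.6 and -11.6, while the first (27.7%) did not part the doses. Signal totals were 929534, 875886 and 962259 at 120 and 969479, 791808 and 896446 at 240 ug/ml, replicate 2 at 240 being the lowest. Epithelial markers were present in 5 of 6 cases, CDH1 being low at means of 0.7 and 0.23. Only 3 of 12 proximal tubule markers, PAX8, GGT1 and SLC5A2, had a mean of 1 or more, and LRP2, SLC22A6 and HNF4A were at 0 in all 6 libraries. Of 8 distal tubule and collecting duct markers SCNN1A (5.03 and 5.17) and ATP6V1B1 (1.37 and 1.0) had a mean of 1 or more, and 4 were at 0. Summed fibroblast markers ran from 66.8 to 76.4 at 120 and from 38.8 to 65.9 at 240 ug/ml, mostly LUM and DCN, with COL1A2, COL3A1 and POSTN at 0, and their part in any result was not tested. Of the leukocyte markers CD68, a lysosomal protein, had means of 100.47 at 120 and 82.9 at 240 ug/ml, so that the list's sum ran from 83.1 to 122.6 and from 72.8 to 99.8, while PTPRC and CD3E were at 0. Of 5 podocyte markers SYNPO (26.43 and 25.8) and PODXL (3.47 and 3.23) had a mean of 1 or more, and WT1 and NPHS1 were at 0. The part of these markers in any result was not tested. No endothelial marker had a mean of 1.

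Whether the second doubling differed from the first was tested per gene as the difference of the 2 steps, a contrast added after the data were seen. With limma 1 gene was higher and 1 lower (0.00596% each), MIR1302-5 and MIR1827, precursors of short RNAs that an oligo(dT) library measures poorly. MIR1302-5 was listed at 0 in every library except the 3 at 60 ug/ml, and MIR1827 in every library except the 3 at 120 ug/ml (1.3, 1.6 and 1.7). At an unadjusted p under 0.05 there were 723 genes (4.31%). The difference of the steps was -0.78 for CCND1, -0.75 for FOSL1, 1.56 for AGT and -0.55 for CCN1, and none of these passed.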

How the data were processed

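The authors deposited 1 table of normalized signal per transcript for 12 libraries (267165 transcripts, 1 decimal). No source used here names the unit, aligner or counter, and the build is GRCh38.p14 per the submitters' processing notes. Transcripts matched to a gene (202305, 75.7%) were summed over 57527 genes. The others were left out of the gene sums, and 5106 of them had a mean signal above 1. The 16789 genes that reached a signal of 1 in 3 or more libraries were compared as log2(signal + 1), with a pseudocount of 1, in 1 limma model (version 3.58.1, R 4.3.3) of the 4 groups with a trend in the prior variance and Benjamini-Hochberg adjustment over all genes, two-sided at 0.05. Fold changes are on that scale, which understates those of low genes.

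Named genes are the 12 nearest to the threshold in each direction with a mean of at least 5, the 10 highest and 10 lowest at 60 ug/ml, up to 4 of each list (the most abundant, as none passed) and genes of an earlier account. List members with an unadjusted p under 0.05, and APRT, ATF4, LUM, DCN, PPP1R10, HSD17B8 and ENSG00000257411, were named in addition, after their values were seen. Members and lists were chosen with earlier results of these data known. The difference of the steps, single transcripts and a joint length and GC trend were added after the data were seen. Promoter sequences are RefSeq's for GRCh38.p14. Alternatives covered scaling, quantile normalization, pseudocount, filter, array weights, robust variance, trends with length and GC content, the replicate block and leaving out each library. With 1 library left out, the remaining 2 shared the model's spread.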

Additional observations from a re-analysis of the deposited data

How the results depend on the processing

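The count of 0 genes higher and 0 lower became 1 and 2 with equal library totals, 1 and 2 with quantile normalization, 1 and 1 with a pseudocount of 5, 2 and 1 with no filter on low signal, 1 and 5 with array weights, and 10 and 7 over single transcripts. It stayed 0 and 0 in the other settings, including each of the 6 fits with 1 library left out (range 0 to 0). The genes called were MIR1827, MIR548AR, RNF32-DT, ENSG00000282339, ENSG00000243302, MIR3677HG and ENSG00000223570. ENSG00000282339 had -1.25 with equal totals and -1.20 with array weights. With the replicate block 0 were higher and 0 lower, the smallest adjusted p was 0.144, and 2024 genes had an unadjusted p under 0.05, against 1331. With array weights 2876 had. Deviations of same-numbered libraries correlated at 0.03, 0.14 and 0.24. The main model did not pair these libraries, and the correlations do not settle whether they are pairs. Replicate 3 was highest on the second component of all 12 libraries in each group, and whether a number marks a shared day is not known. The count of genes called at 60 ug/ml and level within 1.5-fold stayed within 1.5 times of 2806 in every setting that gave it. That bound is wide, as 3177 genes were called there in the main fit. Over all genes the share level within 1.5-fold was 71.9% in the main fit. It was 64.7% with a pseudocount of 0.5, 93.8% with one of 5 and 86.1% with a filter of 5 in 3 libraries. With 1 library left out it ran from 62.2% to 66%. Equal totals moved the median of all genes to 0.06. Read depth is unknown, and intervals were widest at low signal: 41.9% of genes under 5 were level within 1.5-fold, against 91.3% at 50 or more. The causes of these shifts were not tested.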

Other observations

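Single transcripts gave calls that gene sums did not, in a fit over 54340 transcripts added after the data were seen. With limma 10 were higher and 7 lower at 240 than at 120 ug/ml. FTH1-206, a protein-coding transcript of ferritin heavy chain, read 1300.5, 873.7 and 1045.5 at 120 and 300.4, 247.1 and 322 at 240 ug/ml, without overlap. Its log2 difference was -1.88 (adjusted p = 0.00418, limma), while the gene FTH1 differed by -0.30. CAPNS1-217, of the calpain small subunit, read 156.8, 129.6 and 132.4 at 120 and 53.9, 32.6 and 61.8 at 240 ug/ml, with an adjusted p of 0.0376 and a gene difference of -0.42. NAA50-209, of an N-terminal acetyltransferase, read 8.4, 12 and 11.2 at 120 and 23, 26.4 and 28.5 at 240 ug/ml (adjusted p = 0.0237, limma), with a gene difference of 0.16. ELOVL1-214, a non-coding transcript of a fatty acid elongase gene, read 15.6, 9.9 and 14.6 at 120 ug/ml and was listed at 0 in the 3 libraries at 240 ug/ml. CERS5, a ceramide synthase gene, had 1 transcript called lower (CERS5-206) and 1 called higher (CERS5-223), with a gene difference of -0.10. These transcripts share reads with others of their gene, so how the reads were divided among them was part of the deposited values and was not tested.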
